A study of Arabidopsis thaliana with 12 samples.

Results

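A set of 175 nuclear genes of Arabidopsis thaliana had a transcript that was present in dry Col-0 seeds and almost gone after 6 h of imbibition (water uptake). The members were chosen by their measured levels in Col-0. A gene was taken when its mean over the 3 dry Col-0 libraries was at least 1 CPM (counts per 1000000 counts of the library, with no other scaling) and its mean over the 3 imbibed Col-0 libraries was at most 5% of that. Of the 32548 nuclear genes in the count table, 14801 reached 1 CPM in dry Col-0, and the 175 members were 1.18% of these. All of them are annotated as protein coding, and 67 have a symbol. The annotation of 102 names pollen, the anther or their cells.

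Total RNA of whole seeds was sequenced in 12 libraries, 4 groups of 3, namely Col-0 wild type and the mutant erf4-1, each as freshly harvested dry seeds and as seeds kept for 6 h on wet filter paper. ERF4 encodes a repressor of transcription from the AP2/ERF family. The labels name this mutation and the seed state as what the groups differed by, and both genotypes were labelled as the Col-0 ecotype. The library names also end in a digit and a letter, which are the same for all imbibed libraries and vary among the dry ones. Dry replicate 2 labelled erf4 has an ending that no other library has. What these endings stand for is not given. No label tells whether the 3 replicates of a group were grown or harvested apart, and the p-values below rest on the spread between these libraries, which may be technical.

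A dry seed keeps the messenger RNA that was present when it dried, and much of this stored RNA is degraded once the seed takes up water. Pollen is likewise dried and stores RNA for germination, and its tube grows by adding soft pectin wall at the tip. Pectin methylesterases and their inhibitors, polygalacturonases and pectate lyases adjust that wall. Small secreted peptides, receptor-like kinases, calcium signals and ion transport keep the growing tip intact.

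Library totals ran from 31787283 to 42590777 counts, at which 3 counts correspond to 0.0704 to 0.0944 CPM, a limit that covers counting error only. ERF4 itself stood at 31.2%, 61.3% and 124% of its dry Col-0 mean in the dry libraries labelled erf4, and at 10.3%, 40.8% and 94.7% of its imbibed Col-0 mean in the imbibed ones. Replicate 3 therefore goes against its label in both states, and every direction below follows the labels. An embryo list of 5 genes, nearly all from the cruciferin gene CRA1, summed to 55930 to 103200 CPM over the 12 libraries, and a seed coat list of 5 to 1.79 to 5.25 CPM. In dry seeds the embryo list summed to 88910 to 103200 CPM in Col-0 and to 72060 to 73960 CPM in the libraries labelled erf4. Transcripts of a 2-gene endosperm list, nearly all from EPR1, summed to 13490 to 22150 CPM in dry Col-0 and 3639 to 13380 CPM in the dry libraries labelled erf4. A 5-gene leaf list, nearly all from RBCS1A, lay the other way, at 34.6 to 43.3 and 48.1 to 169 CPM.

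Together the 175 members summed to 2526, 1492 and 1389 CPM in dry Col-0, and to 21.2, 27.1 and 26.0 CPM in imbibed Col-0. They took 0.139 to 0.253% of the counts of a dry Col-0 library. The first dry replicate stood above the other two, and the imbibed libraries were close to each other. Since this fall chose the members, it is a description and supports nothing: all 175 were called lower by edgeR, where 25.2% of all genes tested were. The median member kept 1.12% of its dry level, with a range from 0 to 4.94%, and 23 members had no count in any imbibed Col-0 library. In dry Col-0, 48 members had a mean of at least 10 CPM and 38 a mean under 2 CPM. In bulk seed, fewer cells that hold a transcript and less of it per cell cannot be told apart.

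**Figure D1:**
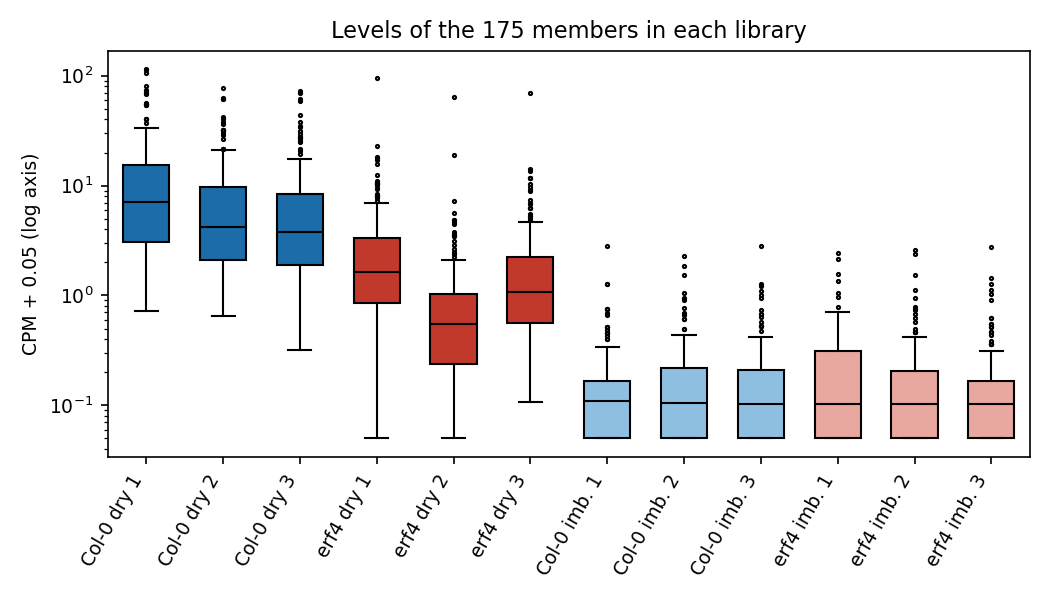
Levels of the 175 members in each of the 12 libraries, on a log axis of CPM plus 0.05, as boxes of the quartiles with the median as a line, whiskers to 1.5 times the box height and points beyond. The dry Col-0 boxes lie highest, those of the dry libraries labelled erf4 lie lower, and all imbibed boxes lie near the level of a few counts.

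The members just inside the limit of 5% were AT1G60740, of the thioredoxin superfamily, which kept 4.91%, LBD21, a LOB-domain factor, with 4.92%, and the peroxidase-family gene AT1G44970, with 4.94%. Just outside lay SFH3, a SEC14-like gene, with 5.15%, AT3G62320, annotated as ribonuclease H-like, with 5.27%, and AT1G04470, of unknown function, with 5.35%. The limit thus fell inside a continuous range and not at a gap.

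What the members share was read from features that the choice did not use. Pollen, anther, tapetum, microspore or sperm are named in the annotation of 102 of 175 members (58.3%), against 675 of the 14801 genes present in dry Col-0 (4.56%). The notes record in how many plant structures a gene's expression has been seen. For the 116 members with such a note the median was 9 structures, and 108 of them (93.1%) had 15 or fewer. Among all genes present in dry Col-0 with a note, the median was 22 structures, and 1788 of 9443 (18.9%) had 15 or fewer. The words searched and the families below were set after the members' product names had been listed, so these shares describe the members and carry no test.

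**Figure D2:**
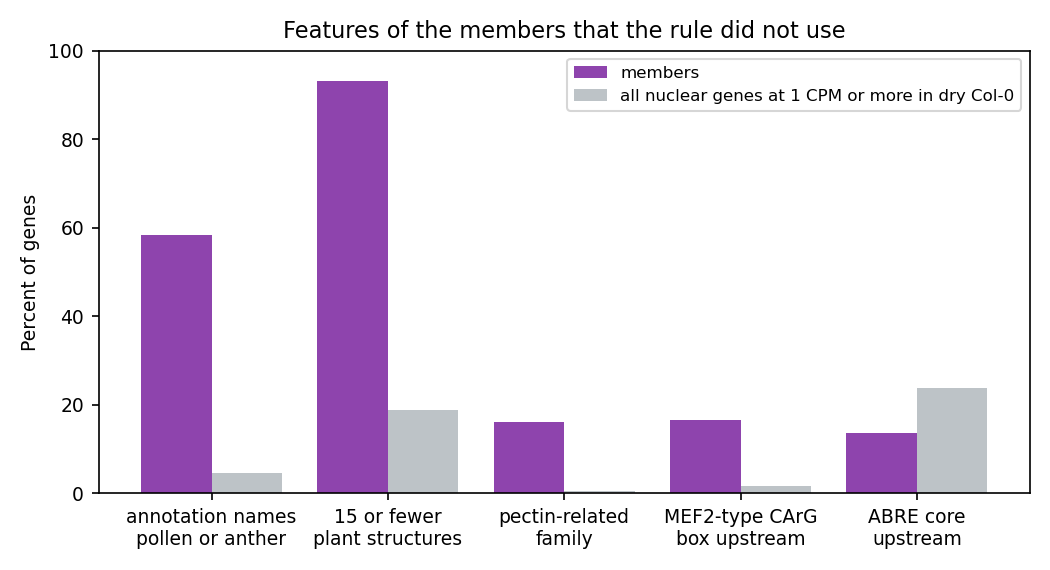
Percent of the 175 members and of all nuclear genes at 1 CPM or more in dry Col-0 that have each of 5 features. The features are pollen or anther named in the annotation (58.3% of members), 15 or fewer plant structures among genes with that note (93.1%), a pectin-related family (16.0%), a MEF2-type CArG box (16.6%) and the ABRE core (13.7%) in the 250 bases upstream. Members stand above the other genes for the first 4 features and below them for the ABRE core.

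Genes of pectin-related families, enzymes and inhibitors together, were the largest group with a common function. With 28 genes they made up 16.0% of the members, against 71 of 14801 genes present in dry Col-0 (0.48%). A further 14 members were other wall enzymes, among them the beta-galactosidases BGAL11 and BGAL4 and 4 SKU5-similar genes of the multicopper oxidase family (sks11, sks12, sks13 and sks14). The remaining families were arabinogalactan and pollen allergen-like surface proteins (9), secreted peptides (14), kinases (18), transporters (10), F-box proteins (2), uncharacterised proteins (23) and others (57).

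Several of the pectin genes are neighbours in the genome. The members lay on all 5 chromosomes (38, 32, 52, 13 and 40 genes on chromosomes 1 to 5), and 37 of them fell in 16 clusters in which the next member was at most 5 genes away. VGD1, its homologue VGDH1 and AT2G47050 stand side by side on chromosome 2 within chr2:19324134-19332659. Other such groups were sks11 with sks13, sks12 with sks14, RALFL8 with RALFL9, RALFL25 with RALFL26, and CHX6A with ATCHX5. Genes of one cluster can share sequence and descent, so they are not independent of each other.

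The 250 bases before the annotated gene start were searched for 7 short motifs on both strands. The MEF2-type CArG box, the sequence that MIKC*-type MADS-domain factors of pollen bind, stood out. It was present before 29 of 175 members (16.6%), 248 of 14800 genes present in dry Col-0 (1.68%) and 669 of 32546 nuclear genes (2.06%). Of the 31 boxes found, 19 lay within 100 bases of the gene start, at a median distance of 61 bases. ACGTG, the core of the abscisic acid response element ABRE, was present before 13.7% of the members and 23.7% of the genes present in dry Col-0. CACGTG, which contains that core, was present before 4.57 and 8.15%, and the RY element CATGCA of seed genes before 9.71 and 7.07%. TATAAA was present before 49.1 and 45.0%, and the short pollen motifs AGAAA and GTGA before 88.6 and 81.7% and before 78.9 and 77.0%. A match is a description and not a binding site. The motifs were chosen with the members known.

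The sequences below, from the RefSeq copy of TAIR10.1, show the box before 4 of the 10 most abundant members, with ABCI21, an abundant member without it, for comparison. They were picked for the box they carry: sks13 and AGP23, of similar abundance, have none. Capitals mark the box in the first 4 sequences and ACGTG in the last. All are on the minus strand, are written 5′ to 3′ and end at the base before the gene start. They come from chr1:612325-612574 (PGA4, a polygalacturonase), chr3:84902-85151 (AT3G01270, a pectate lyase family gene), chr2:19330198-19330447 (VGD1, a pectin methylesterase of pollen tube growth), chr3:79038-79287 (AT3G01240, annotated as similar to a splicing regulatory protein) and chr5:17755769-17756018 (ABCI21, an ATP-binding cassette protein).
PGA4: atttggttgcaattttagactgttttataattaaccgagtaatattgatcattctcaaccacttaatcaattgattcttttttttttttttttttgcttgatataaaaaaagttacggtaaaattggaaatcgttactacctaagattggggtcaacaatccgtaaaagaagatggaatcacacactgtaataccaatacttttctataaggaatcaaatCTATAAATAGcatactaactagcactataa
AT3G01270: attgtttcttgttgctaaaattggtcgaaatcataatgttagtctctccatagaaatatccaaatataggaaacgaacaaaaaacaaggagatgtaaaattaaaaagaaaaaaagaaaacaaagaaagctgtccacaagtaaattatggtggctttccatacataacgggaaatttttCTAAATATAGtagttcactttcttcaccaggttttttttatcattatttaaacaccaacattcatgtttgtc
VGD1: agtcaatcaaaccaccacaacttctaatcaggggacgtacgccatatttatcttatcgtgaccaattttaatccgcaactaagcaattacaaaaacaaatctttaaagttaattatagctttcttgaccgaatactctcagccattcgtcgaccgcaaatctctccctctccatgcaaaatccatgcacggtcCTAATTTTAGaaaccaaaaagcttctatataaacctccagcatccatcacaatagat
AT3G01240: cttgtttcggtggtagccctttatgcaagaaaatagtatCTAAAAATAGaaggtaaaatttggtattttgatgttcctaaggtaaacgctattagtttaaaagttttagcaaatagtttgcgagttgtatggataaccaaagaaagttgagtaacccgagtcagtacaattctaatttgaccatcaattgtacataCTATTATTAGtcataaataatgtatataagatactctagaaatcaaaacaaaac
ABCI21: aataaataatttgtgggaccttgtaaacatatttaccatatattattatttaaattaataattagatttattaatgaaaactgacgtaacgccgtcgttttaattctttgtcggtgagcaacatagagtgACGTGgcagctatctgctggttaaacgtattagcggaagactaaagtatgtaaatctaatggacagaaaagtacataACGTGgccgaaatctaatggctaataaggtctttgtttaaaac

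In PGA4 the box ended 20 bases before the gene start, in VGD1 47 and in AT3G01270 62. AT3G01240 carried 2 boxes, 44 and 201 bases away, and its neighbour AT3G01230 carried 1 at 224. Among members that are not shown, the box stood before VGDH2, CHX23, AGP40, ACT12 and ADF10, all genes of the pollen lists below.

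The libraries labelled erf4 were not used to choose the members, and in these the transcripts also fell during imbibition. Summed over the members, dry libraries labelled erf4 held 616, 229 and 419 CPM and imbibed ones 31.0, 26.7 and 22.9 CPM, so that the groups lay far apart. By edgeR's quasi-likelihood test, 163 of 175 members were lower in imbibed than in dry seeds at an adjusted p under 0.05, against 27.2% of all 18897 genes tested (55.5% in either direction), and none was higher. All 175 had a fold change below 0 (173 without the dry library labelled erf4 replicate 3), with a median log2 fold change of -4.60 against 0.04 over all genes. With the 35 members that had no count in any imbibed library labelled erf4 set to their bound of 3 counts over the group, the median was -4.22. These bounds are in CPM, without the scaling used in edgeR's fit, so this median mixes both scales. The imbibed levels lay below the dry levels without overlap for 144 members, a count for which no share over all genes is given here. The low-count filter bears on the number called, since 120 members would have passed it on the libraries labelled erf4 alone. Of these, 112 were called when only those 6 libraries were fitted.

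The 12 members that were not called in that test were low, with a mean under 1 CPM in dry seeds labelled erf4 except for ATLP-1. ATLP-1, a thaumatin-like gene, stood at 1.22, 1.04 and 1.42 CPM in dry seeds labelled erf4 and at 0.915, 0.0262 and 0.990 CPM in imbibed ones, without overlap (edgeR adjusted p = 0.171). The others were PIPK11, PERK7, PRK4, AT3G20530 and AT3G56600, all of the kinase group, CHX6A, ATCSLA09, SP1L4, ADF10, AT5G28690 and AT3G54880. Of the 18 kinases, 13 were called, against 28 of 28 pectin-related genes, 14 of 14 other wall enzymes, 14 of 14 peptides and 9 of 9 surface proteins. Among members with at least 1 CPM in dry seeds labelled erf4, ATLP-1 kept the most. Next came the pectin methylesterase family gene AT2G26450, from 2.16, 0.692 and 0.963 CPM to 0.340, 0.629 and 0.417 CPM, a log2 change of -1.94 ± 0.41 (edgeR adjusted p = 0.0014), then AT1G23150, GLOX1 and the kinase gene AT5G12000. AT1G23150, an uncharacterised gene, and GLOX1, a glyoxal oxidase, were called with edgeR adjusted p = 0.0335 and 0.0345. AT1G23150 was not called without dry replicate 1 (0.114) or 3 (0.0792) or imbibed replicate 2 (0.0623) or 3 (0.102) labelled erf4. GLOX1 was not called without dry Col-0 replicate 1 (0.051), dry replicate 1 (0.257), or imbibed replicate 2 (0.073) or 3 (0.0621) labelled erf4.

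In dry seeds the members were lower in the libraries labelled erf4 than in Col-0. Their median level was 18.3% of that in dry Col-0, with quartiles of 15.7 and 24.6%, where all genes present in dry Col-0 had a median of 107%. For 153 members the value lay between 10 and 35%, for 6 below 10%, for 4 between 35 and 50%, and for 12 at 50% or above. All 3 dry libraries labelled erf4 lay below all 3 of Col-0 for 160 members, a count for which no share over all genes is given here. The dry Col-0 libraries are those in which the members were required to be present, which pulls this difference down, and the values are to be read with that in mind. By edgeR's quasi-likelihood test 51 members were called lower, against 0.577% of the genes tested, and 0 were called higher, against 0.519% (1.1% in either direction). The unadjusted p was under 0.05 for 159 members (90.9%), and for 15.6% of all genes tested. Of the 175 members, 120 would have passed the low-count filter on the libraries labelled erf4 alone. Since dry Col-0 also chose the members, these shares are a description. A count of 169 had a log2 fold change below 0, with a median of -2.55 against 0.01 over all genes.

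**Figure D3:**
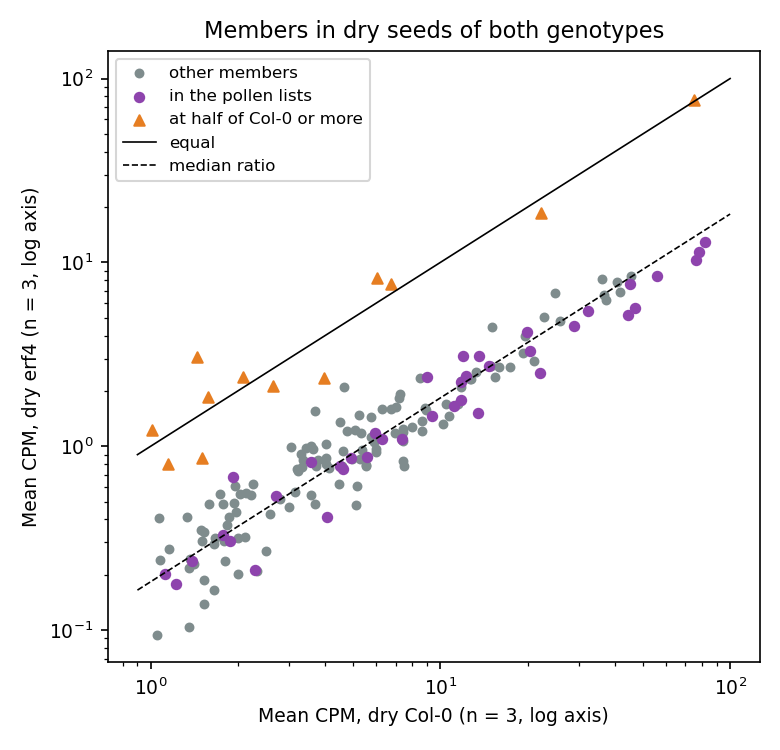
Mean CPM of each member in dry Col-0 (x) and in the dry libraries labelled erf4 (y), 3 libraries each, on log axes, with members of the pollen lists in purple and the 12 members at 50% of Col-0 or more as orange triangles. Most points follow the dashed line at the median ratio of 18.3%, over the whole range of levels, while the triangles lie near the solid line of equal levels.

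The number of calls rested on single libraries. It was 13, 27 and 26 without dry Col-0 replicate 1, 2 or 3 and 17 without the dry library labelled erf4 replicate 3. With both erf4-labelled libraries of replicate 3 left out, where ERF4 goes against the label, 20 were called. In these 5 fits 0.124 to 0.222% of all genes tested were called lower. DESeq2 called 121 members and 2.35% of all genes lower in the full set of libraries. The direction rested on none of them: the median log2 fold change was between -2.22 and -2.97, and at least 168 members were below 0, whichever library was left out. The summed endosperm and embryo lists, nearly all from EPR1 and CRA1, also lay lower in the dry libraries labelled erf4, and the leaf list higher, by the values above. The 2 endosperm genes went opposite ways, with log2 fold changes of -0.86 and 3.58. The embryo genes ran from -0.56 to 0.31, and no gene of these lists was called. Whether the share of endosperm or of other tissue in the extract bears on the members was not tested.

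Most members moved together from library to library, and whether genes outside the set did so too was not tested. Relative to each gene's own dry Col-0 mean, the median member stood at 142%, 82.4% and 76.9% in dry Col-0 and at 29.8%, 8.29% and 19.7% in the dry libraries labelled erf4. Of the 163 members under 50%, 156 were highest in replicate 1 among the dry Col-0 libraries. Among the dry libraries labelled erf4, 147 of them were lowest in replicate 2. For the 12 members at 50% or more these counts were 4 and 9. No share over all genes is given here for such counts. The dry library labelled erf4 with the lowest ERF4, replicate 1, held 130 of the 163 and 6 of the 12 at their highest for that genotype.

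Pectin-related genes had 15 of the 51 calls, with 15 of 28 lower in dry seeds labelled erf4. PGA4 stood at 115, 61.6 and 58.6 CPM in dry Col-0 and at 18.0, 4.44 and 11.7 CPM in the libraries labelled erf4, without overlap. This is a log2 fold change of -2.90 ± 0.49 SE (edgeR adjusted p = 0.021), which no longer passed when dry Col-0 replicate 1 (0.090) or the dry library labelled erf4 replicate 3 (0.0768) was left out. In imbibed seeds PGA4 was at 0.408, 0.724 and 0.897 CPM in Col-0 and 1.52, 0.891 and 0.260 CPM in libraries labelled erf4, ranges that overlap. The pectate lyase gene AT3G01270 stood at 105, 61.6 and 62.0 against 15.8, 3.46 and 11.7 CPM (-3.02 ± 0.39, edgeR adjusted p = 0.00546), and no library left out ended this call. VGD1 stood at 81.2, 42.4 and 43.8 against 10.3, 3.43 and 11.6 CPM, again without overlap. The call of VGD1 (-2.85 ± 0.33, edgeR adjusted p = 0.00465) held without any 1 library. Its neighbours VGDH1, at 16.8% of Col-0, and AT2G47050, a pectin methylesterase inhibitor family gene at 11.7%, were called as well (edgeR adjusted p = 0.0174 and 0.0237). VGDH1 was not called without dry Col-0 replicate 1 (0.0833) or 3 (0.0526) or dry replicate 3 labelled erf4 (0.0622). AT2G47050 was not called without dry Col-0 replicate 1 (0.0991) or 2 (0.0592) or dry replicate 1 (0.0601) or 3 (0.0662) labelled erf4. PMEI1, a pectin methylesterase inhibitor, was called lower, at 14.8% of Col-0 (-2.84 ± 0.46, edgeR adjusted p = 0.0169), but not without dry Col-0 replicate 1 (0.107) or 2 (0.0548) or dry replicate 3 labelled erf4 (0.0613). After imbibition PMEI1 had no count in the libraries labelled erf4, which is at least 41.8-fold lower than in their dry seeds. AT3G07820, a pectin lyase-like gene at 16.8% of Col-0, was called with edgeR adjusted p = 0.0349. It lost the call without any 1 of the dry Col-0 libraries, dry replicates 1 and 3 labelled erf4, imbibed Col-0 replicates 1 and 2 or imbibed replicate 3 labelled erf4 (adjusted p up to 0.121).

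Of the other wall proteins 7 of 14 were called, with a median log2 fold change of -2.61, where the pectin-related genes had one of -2.74. The difference between these groups was not tested. The most abundant member by counts was sks13, at 113, 63.1 and 69.9 CPM in dry Col-0 and 17.8, 7.20 and 13.6 CPM in the dry libraries labelled erf4. After imbibition sks13 kept more in the libraries labelled erf4 (2.40, 2.54 and 1.38 CPM) than most members did, at 16.4% of their dry mean. Its dry genotype difference was -2.79 ± 0.32 (edgeR adjusted p = 0.00465) and held without any 1 library. In libraries labelled erf4 it fell by 3.08 ± 0.34 on the log2 scale (edgeR adjusted p = 1.28e-05). BGAL11, a beta-galactosidase, was at 11.4% of Col-0 (-3.28 ± 0.45, edgeR adjusted p = 0.00546). BGAL4 was the exception among these enzymes, at 57.1% of Col-0 in dry seeds labelled erf4 (edgeR adjusted p = 0.482).

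**Figure D4:**
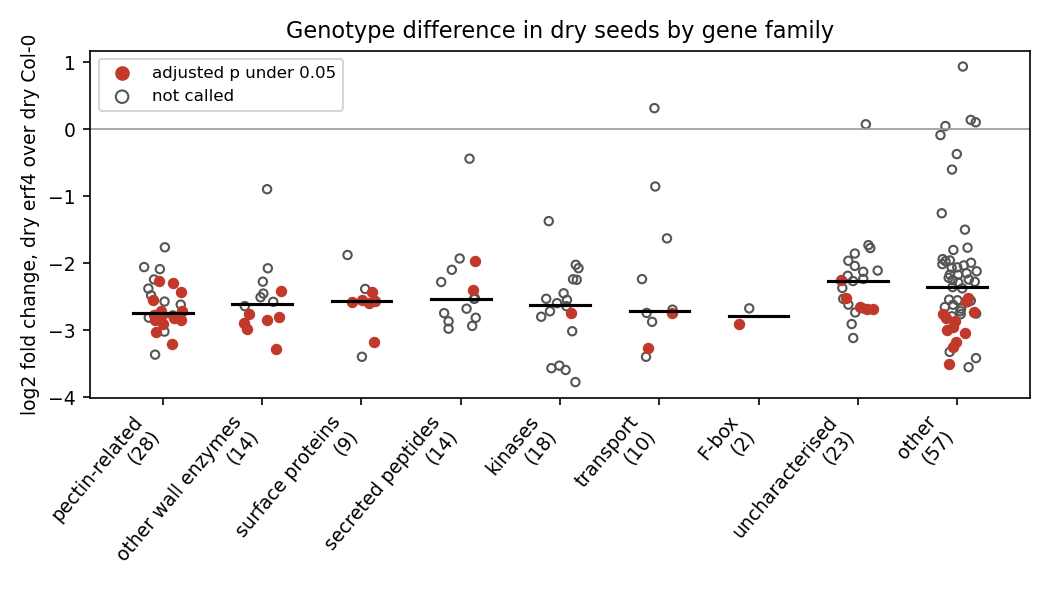
Log2 fold change of dry seeds labelled erf4 over dry Col-0 for each member, by gene family, with the number of members in brackets and the family's median as a line. Filled points have an edgeR adjusted p under 0.05 (15 of 28 pectin-related genes, 1 of 18 kinases), and every family's median lies well below 0, from -2.78 for the F-box genes to -2.26 for uncharacterised proteins.

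The families of surface proteins and secreted peptides had medians of -2.56 and -2.52, with 6 of 9 and 2 of 14 called. AGP23, an arabinogalactan peptide, had the highest level per length of all members, at 102 CPM per kb in dry Col-0. It stood at 72.4, 37.5 and 31.2 CPM in dry Col-0 and at 10.1, 1.89 and 5.01 CPM in the dry libraries labelled erf4 (-3.17 ± 0.51, edgeR adjusted p = 0.0174). AGP23 was not called without dry Col-0 replicate 1 (0.0808) or dry replicate 3 labelled erf4 (0.0704). AGP40, of the same family, stood at 19.7, 9.85 and 7.22 against 4.11, 1.38 and 1.76 CPM (-2.43 ± 0.53, edgeR adjusted p = 0.0487), a call that ended without any 1 of the dry Col-0 libraries, dry or imbibed replicates 2 and 3 labelled erf4, or imbibed Col-0 replicates 1 and 2 (adjusted p up to 0.195). RALFL4 and RALFL19, peptides that keep the tube wall intact, stood at 14.8% and 18.8% of Col-0 and were not called (edgeR adjusted p = 0.0571 and 0.0768). RALFL4 was at 16.4, 11.0 and 6.09 CPM in dry Col-0 and at 2.86, 0.440 and 1.64 CPM in the dry libraries labelled erf4, so the groups did not overlap. The self-incompatibility-like peptide gene AT1G51250 and the defensin-like gene AT5G60615 were the peptides that were called (edgeR adjusted p = 0.0486 and 0.0257). AT1G51250 lost the call without any 1 of the dry Col-0 libraries, imbibed Col-0 replicates 2 and 3, or dry or imbibed replicates 2 and 3 labelled erf4 (up to 0.162). AT5G60615 lost it without any 1 of the dry Col-0 libraries or dry replicate 3 labelled erf4 (up to 0.135), and it overlaps a gene of the other strand at a like level (9.78 against 8.49 CPM in dry Col-0), so its reads are uncertain.

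Among kinases and calcium proteins the levels were lower and the errors wider. ANX2, a receptor of those RALF peptides, stood at 2.48, 2.13 and 2.27 CPM in dry Col-0 and at 0.470, 0 and 0.170 CPM in the dry libraries labelled erf4 (-3.52 ± 0.91, edgeR adjusted p = 0.106). No imbibed library of either genotype held a count of ANX2, which is at least 8.16-fold lower than in dry seeds labelled erf4. The pollen receptor kinases PRK2A and PRK4 stood at 22.9% and 19.7% of Col-0, and the receptor-like cytoplasmic kinase gene AT3G02810 at 17.5%. The calcium-dependent kinases CPK24 and CPK14 stood at 17.4% and 16.3%, and the calcium pump ACA9 at 10.2%, with edgeR adjusted p between 0.0609 and 0.195 for these 6 genes. The kinase-family gene AT2G43230 was the only kinase called (-2.74 ± 0.57, edgeR adjusted p = 0.0372). It lost the call without any 1 of the dry Col-0 libraries, imbibed Col-0 replicate 2, or dry replicates 2 and 3 labelled erf4 (up to 0.153). It also overlaps a gene on the other strand that was more abundant (8.20 against 5.99 CPM in dry Col-0), so its reads are uncertain. The lowest ratios of all members were those of the kinase genes AT2G24370 (7.67%), PERK7 (8.96%) and PIPK11 (9.01%), then AT5G62240 (9.03%) and ANX2 (9.29%), whose means in dry seeds labelled erf4 were 0.0944 to 0.213 CPM and which were not called (edgeR adjusted p between 0.106 and 0.165).

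Of the 10 transporters 2 were called lower, and the ratios of dry seeds labelled erf4 to Col-0 ran from 10.2% for ACA9 to 136% for AT3G45660. Neither of the cytoskeletal genes on the lists was called. CHX23, a cation/proton exchanger, stood at 19.5, 9.78 and 11.0 CPM in dry Col-0 and at 2.37, 0.692 and 1.47 CPM in the dry libraries labelled erf4 (-3.26 ± 0.44, edgeR adjusted p = 0.00483). The call of CHX23 held without any 1 library. The sugar transporter STP11 stood at 6.04, 4.09 and 3.73 against 0.939, 0.252 and 1.08 CPM (-2.74 ± 0.56, edgeR adjusted p = 0.0425), a call that ended without any 1 of the 6 dry libraries or imbibed Col-0 replicates 2 and 3 (adjusted p up to 0.161). STP11 had no count in imbibed Col-0. The potassium channel gene SPIK (14.5% of Col-0), the exchanger gene ATCHX8 (35.2%), the actin gene ACT12 (17.0%) and the actin depolymerising factor gene ADF10 (18.0%) were not called, with edgeR adjusted p between 0.119 and 0.343. ACT12 overlaps a gene on the other strand that was near 0 (0.0539 CPM).

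The remaining members held 1 F-box call, 5 among 23 uncharacterised proteins and 12 among 57 others. AT5G19580, a glyoxal oxidase-related gene, stood at 55.8, 31.9 and 37.7 CPM in dry Col-0 and at 8.10, 3.74 and 8.87 CPM in the dry libraries labelled erf4. The groups lay apart (-2.73 ± 0.31, edgeR adjusted p = 0.00465), and this call held without any 1 library. AT3G01240 stood at 69.3, 39.98 and 27.4 against 17.1, 2.83 and 5.50 CPM, also apart but with more spread (-2.54 ± 0.55, edgeR adjusted p = 0.0536). AT1G60740 was at 40.4, 21.1 and 13.2 against 10.7, 3.59 and 6.15 CPM (edgeR adjusted p = 0.0565). The F-box gene called was DAF1 (-2.90, edgeR adjusted p = 0.0209), which was not called without dry Col-0 replicate 1 (0.128) or 3 (0.0633) or dry replicate 3 labelled erf4 (0.0613).

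A smaller class was lower by less, or not lower, in the dry libraries labelled erf4, and none of it was called. In 12 members the level in dry seeds labelled erf4 was at least 50% of that in Col-0, a limit drawn after the ratios had been seen, and 7 of these were above Col-0. The split was made on this ratio, so whether the dry sums of either class lie apart between the genotypes follows from it and is no result. Summed, they stood at 124, 130 and 121 CPM in dry Col-0 and at 157, 103 and 117 CPM in the dry libraries labelled erf4, which overlap. The other 163 members summed to 2401, 1362 and 1268 CPM against 459, 126 and 302 CPM, which do not. After imbibition the sum over the 12 was 4.55 ± 1.04 CPM in Col-0 and 5.17 ± 1.94 CPM in the libraries labelled erf4 (SD, n = 3). Pollen or the anther is named for 1 of the 12, for 101 of the 163 and for 4.56% of the genes present in dry Col-0. A note on plant structures exists for 4 of the 12 and for 112 of the 163, which limits this comparison. The MEF2-type box stood before 0 of the 12, 29 of the 163 and 1.68% of the genes present in dry Col-0. These differences between the classes were not tested.

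**Figure D5:**
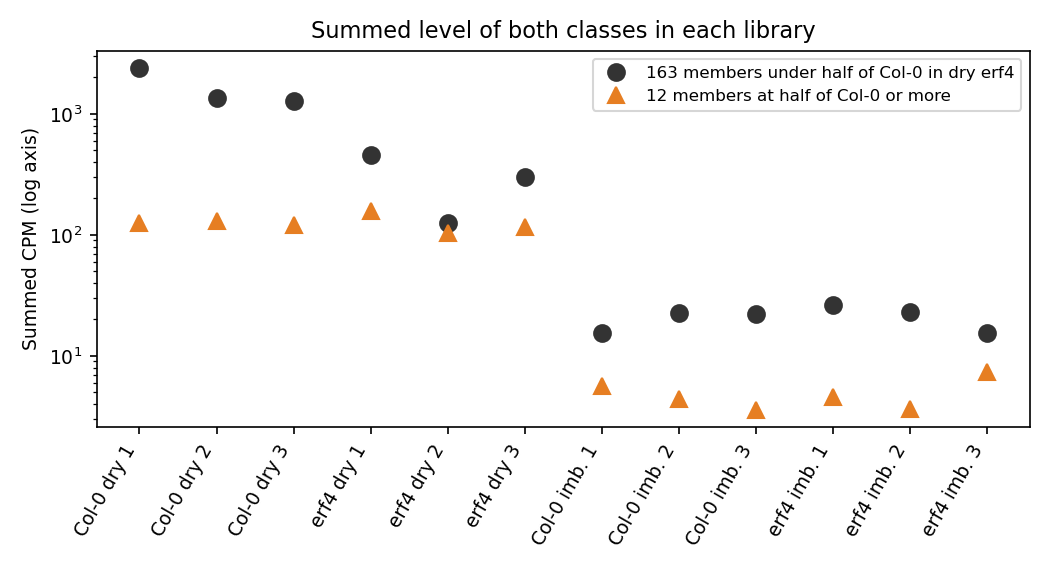
Summed CPM in each library, on a log axis, of the 163 members under 50% of Col-0 in dry seeds labelled erf4 (circles) and of the 12 members at 50% or more (triangles). In dry seeds the circles fall from 1268 to 2401 CPM in Col-0 to 126 to 459 CPM in the libraries labelled erf4, while the triangles stay between 103 and 157 CPM, which follows from the split, and both are lower after imbibition.

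ABCI21 made up most of that class and kept 3.47% of its dry level in Col-0 and 3.13% in the libraries labelled erf4 after imbibition. It stood at 73.5, 77.8 and 73.2 CPM in dry Col-0 and at 95.8, 64.1 and 69.6 CPM in the dry libraries labelled erf4 (-0.09 ± 0.14, edgeR adjusted p = 0.823). In imbibed seeds it was at 2.74, 2.25 and 2.80 CPM in Col-0 and 2.09, 2.36 and 2.73 CPM in the libraries labelled erf4. The fall in the latter was 5.50 ± 0.18 on the log2 scale (edgeR adjusted p = 1.43e-09). ABCI21 lies on chr5:17753959-17755768, next in the table to CRA1 and without overlap with it.

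The others of the 12 were mostly low. GPX4, a glutathione peroxidase, stood at 6.53, 7.44 and 6.30 against 10.4, 5.57 and 6.88 CPM in dry seeds, and the major facilitator gene AT3G45660 at 7.66, 5.55 and 4.92 against 9.56, 4.78 and 10.2 CPM, both with overlapping ranges. AT4G28140, an AP2/ERF-family factor, had the highest ratio of all members, from 1.16, 2.68 and 0.487 to 3.29, 0.629 and 5.24 CPM, with wide spread (0.94 ± 0.85, edgeR adjusted p = 0.641). It had no count in any imbibed library labelled erf4, at least 117-fold lower than in their dry seeds. LBD21 (117% of Col-0), ATLP-1 (121%) and the uncharacterised gene AT2G26515 (114%) were not called, with edgeR adjusted p between 0.959 and 0.974. The rest were AT5G45440 (83.7%), RALFL18 (80.5%), AT1G44970 (70.3%), the HCO3- transporter family gene AT4G32510 (58.9%) and BGAL4.

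In imbibed seeds no difference between the genotypes was called for a member. At that time most members were at 0 or a few counts per library, and the imbibed Col-0 libraries also chose the members for low levels. The summed level was 24.7 ± 3.14 CPM in Col-0 and 26.9 ± 4.04 CPM in the libraries labelled erf4 (SD, n = 3). By edgeR 0 of 175 members were called, against 0.0212% of all genes tested in either direction (lower 0.00529%, higher 0.0159%). The unadjusted p was under 0.05 for 22 members (12.6%), and for 2827 of all 18897 genes tested, a larger share. DESeq2 called 5 members and 2.82% of all genes in either direction, a share close to that of the members. Without both libraries labelled erf4 replicate 2, edgeR called 2 members and 1.99% of all genes. At this depth a difference between levels near 3 counts was not detectable.

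Relative to the dry level of the same genotype, the median member kept 1.12% in Col-0 and 5.58% in the libraries labelled erf4, with values from 0 to 101% in the latter. The difference of the imbibition changes, of which the Col-0 side was used to choose the members, was called for 0 members by edgeR and for 0% of all genes tested. For 66 members (37.7%) and 10.5% of all genes its unadjusted p was under 0.05. DESeq2 called 34 members and 0.48% of all genes in that direction, and nothing is read from this, since the rule used the contrast. In that direction edgeR called 3 members and 0.0207% of all genes without the dry library labelled erf4 replicate 1. It called 1 member and 0.0052% of all genes without the imbibed one of replicate 3, and 1 and 0.00522% without both libraries of replicate 1.

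Applied to the libraries labelled erf4, the same rule found 57 genes, of which 37 were members. These were 21.1% of the Col-0 list and 64.9% of the list from libraries labelled erf4. Of all members, 89 had at least 1 CPM in dry seeds labelled erf4. The 20 genes found there and not in Col-0 kept a median of 10.4% in imbibed Col-0. SIS, annotated as a ubiquitin ligase-like protein, was the most abundant of these, at 477 ± 47.2 and 31.0 ± 17.9 CPM in dry and imbibed Col-0 and 563 ± 95.6 and 21.4 ± 8.35 CPM in the libraries labelled erf4 (SD, n = 3). Its residue was 6.48% in Col-0, above the limit, and 3.81% in the libraries labelled erf4.

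The pollen character of the members was also read from 9 lists of 136 genes of pollen and the anther, written with results of these data known. Of these genes 66 reached 1 CPM in dry Col-0, and 39 of the 66 were members, 21 of them on the list named pectin. The others were 5 on the list of receptor signalling, 4 each on those of surface proteins and transport, 3 for calcium and 2 for the cytoskeleton. The list named pectin also holds other wall genes, such as sks13. It is thus not the same set as the 28 pectin-related members above. The lists of male gametophyte transcription factors, sperm cells and tapetum held no member. This covers the listed genes only and not what other members do. Of the sperm genes, GEX2 had no count in any library and MGH3, DMP9 and HAP2 stood at 0.018, 0.009 and 0.907 CPM in dry Col-0, while GEX1 was at 31.1 CPM. DUO1, a regulator of the sperm lineage, had no count in any library. Of the tapetum genes LAP6 (15.6 CPM) and LAP5 (1.99 CPM) were the ones above 1 CPM in dry Col-0.

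The 27 genes of these lists that were present in dry Col-0 and are no members lay above the residue limit by the rule. They kept 7.28 to 292% of their dry level in imbibed Col-0, with a median of 49.1%, and stood at 24.9 to 161% of Col-0 in dry seeds labelled erf4, with a median of 76.7%. AGP6 and AGP11, arabinogalactan proteins of pollen, kept 17.7% and 30.0% and stood at 44.3% and 33.2% of Col-0. ANX1, which acts with ANX2, was at 292% of its dry level in imbibed Col-0, where ANX2 had no count, and it rose in both genotypes (edgeR adjusted p = 0.00324 in Col-0 and 1.86e-05 in the libraries labelled erf4). Over each whole list, members included, the numbers called lower in dry seeds labelled erf4 by edgeR were 15 of 24 tested for pectin, 4 of 10 for surface, 1 of 13 for signalling and 3 of 10 for transport. They were 0 of 7 for calcium, 0 of 9 for the cytoskeleton, 0 of 7 for factors, 0 of 2 for sperm and 0 of 3 for tapetum, and none of these lists had a gene called higher. The lists of leaf (4 tested), embryo (5), seed coat (5) and endosperm (2) had 0 called in either direction. For imbibed against dry seeds labelled erf4, where 27.2% of all genes tested were lower and 28.4% higher, 23 of 24 were lower for pectin, 7 of 10 for surface, 7 of 13 for signalling, 6 of 10 for transport and 4 of 7 for calcium. The count was 3 of 9 for the cytoskeleton, 3 of 7 for factors, 2 of 2 for sperm and 1 of 3 for tapetum, and 1 gene each was higher for surface, signalling, transport, cytoskeleton and factors. In the lists of other tissues 1 of 4 was lower for leaf, 2 of 5 for embryo, 1 of 5 for seed coat and 0 of 2 for endosperm, with 1 higher each for embryo and endosperm. Lists of so few genes with counts near the share over all genes say nothing about the list.

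Overlapping annotation limits single values. Of the members 30 overlap another gene, 27 of them on the other strand, and the strand setting of the counting is not given in the sources used here. For 16 of the 30 the overlapping gene reached at least 10% of the member's own dry level. The reads of members that overlap more abundant genes on the other strand are therefore uncertain. The longest such overlap was that of AT4G18596, over 2338 bases, with a gene at 18.3 against its own 8.86 CPM in dry Col-0. AT4G18596 was called lower in dry seeds labelled erf4 (edgeR adjusted p = 0.0237). Others were CPK24, AT3G20220, CWINV2, ACA3, sks11, AT3G56180, DES-1-LIKE and AT5G61680, besides AT5G60615 and AT2G43230 named above. A near copy was found for 1 member, AT5G26692.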

How the data were processed

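The counts were deposited as a single table with a column for each of the 12 libraries, in which each gene also has its position and length. The submitters' processing notes list the build TAIR10 and, in no order, DESeq2 1.34.0, featureCounts 2.0.1, HISAT2 2.1.0 and fastp 0.20.0. Parameters, strand and annotation release are not given in the sources used here. All 32548 nuclear identifiers matched RefSeq TAIR10.1, 99.95% with the same start and end.

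Members were chosen from plain CPM. Tests used edgeR 4.0.16 (R 4.3.3): filterByExpr, which left 18897 genes with 99.97% of the counts and all 175 members, TMM scaling, and 1 robust quasi-likelihood model of the 4 group means (biological coefficient of variation 0.241, 8 residual degrees of freedom). Genes were called at 0.05 after Benjamini-Hochberg adjustment across the whole set of tested genes. The procedure was also run on data simulated with the same spread for all genes and with independent libraries. Members that move together differ from that setting, so the run says nothing about their calls. DESeq2 1.42.0 was an alternative, and BLAST 2.17.0 found copies (95% identity over 100 bp). Same-numbered libraries labelled erf4 deviated together between states (r = 0.341, 0.343 and 0.350), so the numbers pair them. Replicates differed by a chi-square per degree of freedom of at least 20.5, and none was taken for a repeat.

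The members, gene lists, families, motifs and the limit of 50% were chosen with earlier results of these data known. Genes named were the 10 most abundant members, up to 4 members of each pollen list, the 5 lowest and highest genotype differences, those at the limit, and the 5 that kept most in libraries labelled erf4; others, such as VGDH1, PMEI1 and DAF1, were named after their values were seen. A fold against a group without counts is a bound from 3 counts over the group. Levels, percents and bounds are in plain CPM, while log2 fold changes carry the TMM scaling, so a percent kept and a log2 fall need not match.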

Additional observations from a re-analysis of the deposited data

How the results depend on the processing

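The number of members was 148 to 225 under other residue limits, 121 when single libraries had to meet the limit, and 160 to 188 without 1 library, but 88 at a minimum of 5 CPM and 57 by the same rule in the libraries labelled erf4. Members called lower between imbibed and dry seeds labelled erf4 numbered 112 to 167 over all alternatives. They were 153 to 167 without 1 library, 162 with the replicate block and, added after seeing the data, 164 with the block within each genotype. Over the alternative fits, 19.6 to 30.5% of all genes were called lower at an adjusted p under 0.05. Those lower in dry seeds labelled erf4 than in Col-0 numbered 121 with DESeq2 (2.35% of all genes) and 16 at an adjusted p under 0.01. They numbered 20 with replicate 3 labelled erf4 left out in both states (0.178% of all genes) and 76 with replicate 1 left out likewise (0.966%). Without 1 library they were 13 to 63 (0.124 to 0.705% of all genes). Between the dry genotypes the same-numbered libraries did not deviate together (r = 0.0683, -0.172 and -0.277), and the replicate block gave 58 (0.587% of all genes). In imbibed seeds the count of 0 became 5 with DESeq2 (2.82% of all genes were called, near the members' share), 2 with replicate 2 labelled erf4 left out in both states (1.99% of all genes), and 0 to 0 without 1 library, and the block gave 0. The interaction count of 0 became 34 with DESeq2 (0.48% of all genes) and 2 with no filter on low counts (0.0159%). It became 1 with replicate 1 labelled erf4 left out in both states (0.00522%), and 0 to 3 without 1 library (0 to 0.0207%). Leaving out replicate 1 or 2 in both states was chosen after seeing the data. The cause of these changes was not tested. The members below 0 numbered 173 to 175 of 175 between states and 168 to 173 between dry genotypes wherever all were tested; named genes that changed sign, such as PERK7, ATLP-1, GPX4 and ABCI21, were not called in that comparison. Levels near 3 counts limit all imbibed values.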
